A study of Equus caballus with 4 samples.

Results

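The genes described here serve myoblast adhesion, fusion and membrane repair: CDH15, CDH2, NCAM1, CAV3, DYSF, MYOF, ADAM12, TMEM8C, M6PR and CD9. They were picked by name for their roles, with earlier results of these data known, among 24998 gene names with 43603 gene probes on a horse expression array. The gene name column matched 7 of the 10 genes with 9 probes. CDH15, MYOF and TMEM8C stood under transcript identifiers and were found only by the gene's full name in the description column, with 1 probe each, so that 12 probes represent the 10 genes. NCAM1 has 3 probes and every other gene has 1. All 12 probes were well above background in both channels on all 4 arrays and entered the test.

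During muscle formation, mononucleated myoblasts recognise each other through cadherins and immunoglobulin adhesion molecules, align, and fuse into multinucleated myotubes. Fusion needs the muscle-specific membrane protein TMEM8C, also called myomaker or MYMK. The long myotube membrane is then kept intact by a patching machinery in which dysferlin, the DYSF protein, and the muscle caveolin CAV3 take part, and loss of either causes muscle disease in humans.

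The cells were primary equine satellite cells, the resident stem cells of skeletal muscle, from m. semitendinosus of young stallions, on the 3rd day of differentiation. The treated group (4 samples) received gamma-oryzanol (GO), a mixture of ferulic acid esters from rice bran, at 0.125 µM for 24 h, with 3 mM hydrogen peroxide (H2O2) during the last 1 h. The control group had no GO. Whether it received H2O2 is left unsaid by the labels, while the study describes it as exposed to H2O2, and per its methods the control medium held the DMSO vehicle. Each of 4 two-colour arrays on 1 slide carried treated RNA in Cy5 (red) and control RNA in Cy3 (green), with no dye swap, so that dye and treatment cannot be told apart in any value below. The labels call the arrays biological replicates but give the control the same replicate number on all 4, and the methods state that 1 primary cell line was selected. Nothing says that the cultures came from separate animals, so the p-values measure the spread between these samples only, which may be technical.

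In the whole series, 24230 probes were tested, and 54.9% to 61.4% of the gene spots of a channel were well above background. The log2 ratios of the arrays correlated at Pearson's r of 0.174 to 0.697 over these probes, as a description of arrays that share a slide. Of the satellite and muscle cell markers, 5 of 6 were tested, and MYOG (log2 ratio 0.33 ± 0.13, SD, n = 4) and MYH3 (0.25 ± 0.14) passed as higher, while PAX7 was not well above background often enough to be tested. The tested probes of DES and MYH3 had mean log2 signals of 14.0 and 16.0. Fibroblast markers were bright as well, with mean log2 signals of 14.8 for COL1A1, 16.9 for COL3A1 and 15.4 for DCN, and of 4 tested THY1 alone passed (0.28 ± 0.14). Of 3 leukocyte markers, PTPRC was higher by 0.53 ± 0.05 and CD14 lower, at -0.17 ± 0.06. PTPRC was found by description only, and its brightest probe had a mean log2 signal of 13.7. Of its 15 probes on the array only 7 were tested, with 6 higher and 1 lower. CD68, the other leukocyte marker, did not pass (0.005 ± 0.06) and had a mean log2 signal of 7.28. None of the 4 endothelial, 3 adipocyte and 2 glial and neural markers found on the array could be tested, and neither of the 2 smooth muscle markers tested passed. In such bulk samples fewer cells of a type and less RNA per cell cannot be told apart, and the part of these cell types in the results below was not tested.

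Probe sequences are shown for the 5 probes that passed the test and for TMEM8C, since each value below is the hybridisation of this stretch alone. They are 60 bases long, printed 5′ to 3′ in lower case with no base marked, as the array files give them. Positions are those of the array annotation on EquCab1, and exon, intron and UTR were not assigned because gene models of that build were not at hand.
CDH15, chr3:63378474-63379468, plus strand: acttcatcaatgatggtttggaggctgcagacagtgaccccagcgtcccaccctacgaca
NCAM1, chr7:18350982-18351041, plus strand: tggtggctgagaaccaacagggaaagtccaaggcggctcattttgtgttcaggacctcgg
TMEM8C, chr25:2991646-2991705, plus strand: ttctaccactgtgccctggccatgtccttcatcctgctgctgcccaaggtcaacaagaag
ADAM12, chr1:6515208-6515267, plus strand: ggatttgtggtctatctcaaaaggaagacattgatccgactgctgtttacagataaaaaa
DYSF, chr15:27771949-27772008, minus strand: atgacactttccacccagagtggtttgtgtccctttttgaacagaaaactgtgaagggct
CAV3, chr16:8010851-8010910, minus strand: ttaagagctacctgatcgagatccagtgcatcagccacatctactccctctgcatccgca
The CDH15 interval spans 995 bases, more than the probe itself, as does that of MYOF with 1431 bases. The G and C content of the 12 member probes ranged from 35% to 55%.

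Across the 10 genes, CAV3, CDH15, DYSF, ADAM12 and 1 of the 3 NCAM1 probes were higher in cells given GO and H2O2 than in control cells, each by 1.12- to 1.28-fold. A call here is a Benjamini-Hochberg adjusted p under 0.05 in limma, adjusted over all 24230 probes. The 5 called probes are 41.7% of the 12, beside 17.1% of all probes tested. All 5 were higher, beside 9.49% of all probes called higher, and 0 of 12 were lower, beside 7.59%. Among the 12 probes, 7 had an unadjusted p under 0.05, beside 36.7% of all probes tested. None of the 12 reached the call with a change of at least 1.3-fold, which 1.42% of all probes did. The study's methods name that limit, but its list of genes from these arrays was not held to it.

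The ratio had 1 sign on all 4 arrays for 7 of 12 probes, beside 43.8% of all probes. The normalised channel signals of treated and control cells did not overlap for 2 of 12 (CDH15 and CAV3), beside 14.2% of all. The median log2 ratio of the 12 probes was 0.12, against 0.003 over all probes, and it was 0.14, 0.15, 0.19 and 0.16 on replicates 1 to 4. The median SD between arrays was 0.131 for the member probes and 0.0934 for all probes. The median of the members thus lay above 0 on every array, although CD9 lay below 0 on all 4 and CDH2 and M6PR on 2 each.

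All 5 calls were lost when replicate 1, 3 or 4 was left out, and that of ADAM12 without replicate 2 as well. Without replicate 1, 3 or 4 in turn, 0 of the 12 member probes passed, and 2, 38 and 0 of all probes did. Without replicate 4 the log2 ratios were 0.27 for CDH15, 0.16 for NCAM1 (position 1993), 0.27 for ADAM12, 0.28 for DYSF and 0.36 for CAV3. In that fit 8 members and 6694 of all probes had an unadjusted limma p under 0.05, beside 7 and 8898 with all arrays. Why the calls were lost was not tested. Without replicate 2, 4 passed (CDH15, NCAM1, DYSF and CAV3) and CAV3 also reached 1.3-fold. The 5 called probes stayed positive under all 15 alternative settings, with adjusted p between 0.0159 and 0.827. Settings that change only the filter, the test or the pairing keep the same ratio, so they could not turn its sign. The deposited ratios and Agilent's processed signals hold the same values. With all 4 arrays kept, none of the 12 passed with median centring in place of loess or by the methods' t-test, and only CDH15 and CAV3 passed when both channels of an array were treated as unpaired.

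**Figure D1:**
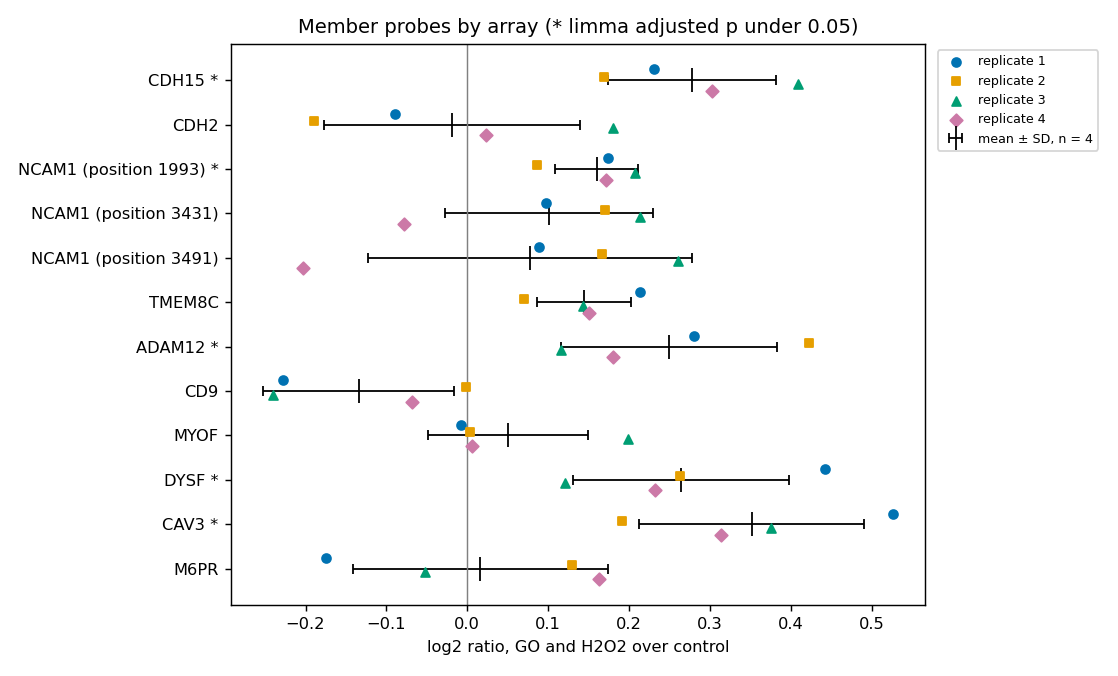
Log2 ratio of GO and H2O2 over control (x axis) for the 12 member probes (y axis) on each of 4 arrays (coloured symbols), with the mean and SD as black bars. All 4 arrays lie above 0 for CDH15, the NCAM1 probe at position 1993, TMEM8C, ADAM12, DYSF and CAV3, and below 0 for CD9.

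CDH15, or M-cadherin, is the calcium-dependent adhesion molecule typical of satellite cells and myoblasts. Its scanned mean signal in control and treated cells was 2944 and 4104 on replicate 1, 2470 and 3561 on replicate 2, 1971 and 3202 on replicate 3, and 2325 and 3227 on replicate 4. After normalisation the log2 ratios were 0.23, 0.17, 0.41 and 0.30. Every treated signal lay above every control signal on the normalised scale, with controls within 11.35 to 11.39 and treated cells within 11.55 to 11.80. The mean log2 ratio was 0.28 ± 0.10 (SD, n = 4; 95% confidence interval 0.16 to 0.40), a 1.21-fold difference with a limma adjusted p of 0.0221.

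CDH2, or N-cadherin, is also made by myoblasts and by many other cells. It gave scanned signals of 5217 and 5945, 4234 and 4854, 3139 and 4377, and 4062 and 4756 in control and treated cells of replicates 1 to 4. The log2 ratios were -0.09, -0.19, 0.18 and 0.02 and lay on both sides of 0. The mean was -0.02 ± 0.16 (SD, n = 4; limma adjusted p of 0.855), with a 95% confidence interval of -0.17 to 0.13. The sign of the mean turned when replicate 1 or 2 was left out, and the interval spans a fall and a rise of about the same size.

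On every array CDH15 had the higher ratio of the 2 cadherins. The difference within arrays was 0.32, 0.36, 0.23 and 0.28, with a mean of 0.30 ± 0.05 (SD, n = 4). Its exact two-sided sign-flip test over the 4 arrays gave p = 0.125, the smallest value that 4 arrays allow (0.375 after adjustment over 3 such pairs of probes). The 2 probes were thus set apart on all arrays, with a difference over 5 times its SD, in a design that cannot reach 0.05.

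NCAM1, the neural cell adhesion molecule, marks myoblasts and young myotubes and is made in several splice forms. Its 3 probes lie at positions 1993, 3431 and 3491 of the annotated transcript. The probe at position 1993 had scanned signals of 5223 and 7165, 3902 and 5416, 3086 and 4366, and 3550 and 4584 in control and treated cells of replicates 1 to 4. Its log2 ratios were 0.17, 0.09, 0.21 and 0.17, all above 0 although the channel signals overlapped. The mean was 0.16 ± 0.05 (SD, n = 4; 95% confidence interval 0.06 to 0.26), with a limma adjusted p of 0.0420. This was the smallest SD among the 12 member probes. The call was lost with Agilent's processed signals, the deposited ratios, an offset of 0, median centring, the methods' t-test and unpaired channels, and without replicate 1, 3 or 4.

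The other two NCAM1 probes are neighbours, since 1 ends at 18367223 and the next starts at 18367224 on chromosome 7. Their log2 ratios were 0.10, 0.17, 0.21 and -0.08 at position 3431 and 0.09, 0.17, 0.26 and -0.20 at position 3491. Both were above 0 on replicates 1 to 3 and below 0 on replicate 4, where the probe at position 1993 had 0.17. Their means were 0.10 ± 0.13 (limma adjusted p of 0.239) and 0.08 ± 0.20 (limma adjusted p of 0.491). Between positions 1993 and 3491 the difference ranged from -0.08 to 0.37 and was above 0 on 2 of 4 arrays (exact sign-flip p = 0.625, 0.625 adjusted). A mean over the 3 probes gave NCAM1 a log2 ratio of 0.11 and an adjusted p of 0.165, so the call for this gene depends on the probe.

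**Figure D2:**
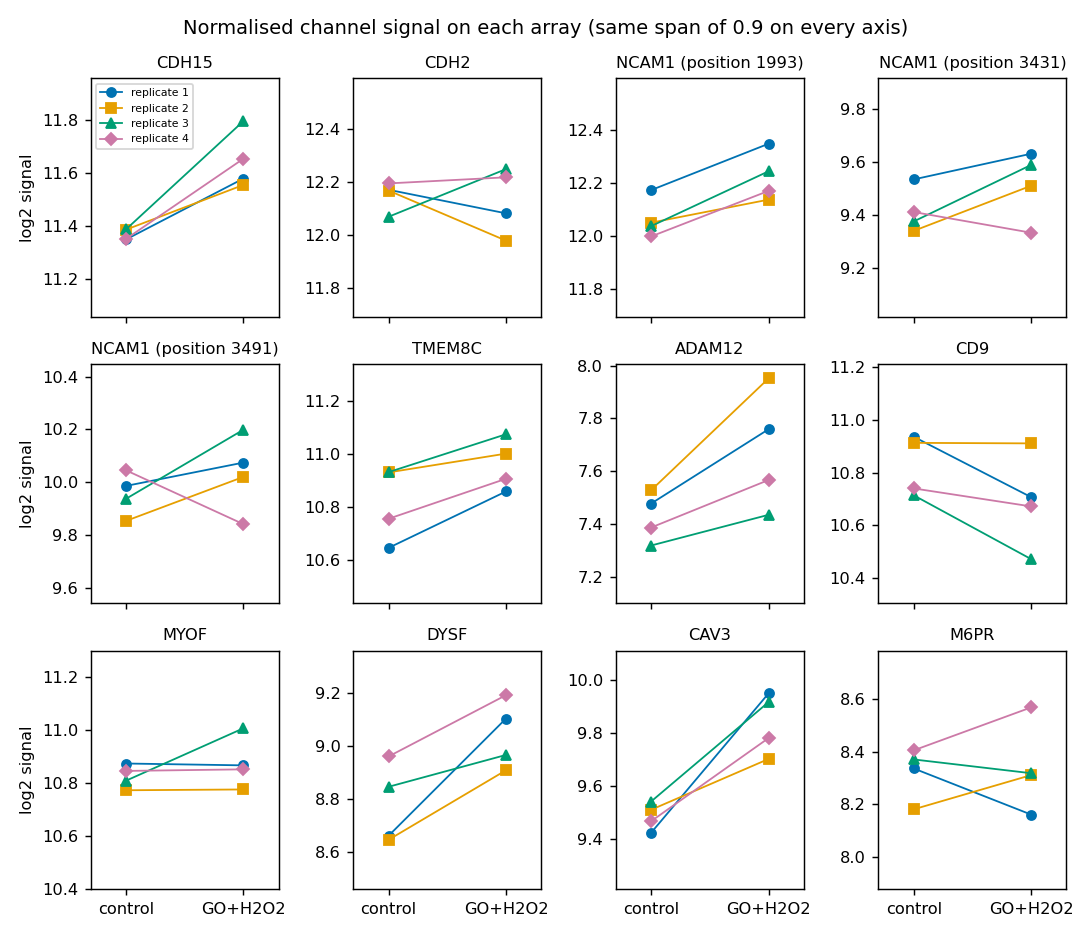
Normalised log2 signal (y axis) of control and GO and H2O2 cells (x axis) on each of 4 arrays, 1 panel per member probe, each line joining both channels of 1 array. Treated and control signals do not overlap for CDH15 and CAV3, and on replicate 4 the lines of the NCAM1 probes at positions 3431 and 3491 fall while those of replicates 1 to 3 rise.

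TMEM8C encodes the membrane protein that myoblasts need in order to fuse. Its scanned signals were 1819 and 2465, 1803 and 2410, 1428 and 1929, and 1562 and 1929 in control and treated cells of replicates 1 to 4. The log2 ratios of 0.21, 0.07, 0.14 and 0.15 were all above 0, while the channel signals of the 2 groups overlapped. The mean was 0.14 ± 0.06 (SD, n = 4; 95% confidence interval 0.05 to 0.24), or 1.11-fold, and with a limma adjusted p of 0.0562 it did not pass. Without background correction it did pass (adjusted p of 0.0466).

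ADAM12, a membrane-bound metalloprotease with a disintegrin domain, is made by myoblasts around the time of fusion. It was the dimmest of the 12 probes, with a mean log2 signal of 7.56, and its scanned signals in control and treated cells were 193.7 and 232.9, 181.3 and 241.6, 134.6 and 140.9, and 163.9 and 163.6 on replicates 1 to 4. The local backgrounds ranged from 39.0 to 51.5. Its log2 ratios were 0.28, 0.42, 0.12 and 0.18, and on replicate 4 the scanned signals of both channels were nearly equal, so that the ratio there comes from background correction and normalisation. The mean was 0.25 ± 0.13 (SD, n = 4; 95% confidence interval 0.11 to 0.39), or 1.19-fold, with a limma adjusted p of 0.0352. Over the settings that kept all 4 arrays its log2 ratio ranged from 0.24 to 0.38, the widest such range among the called probes.

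CD9, a tetraspanin of the cell surface that organises adhesion partners in the membrane, was the only member below 0 on all 4 arrays. Its scanned signals were 2231 and 2209, 1784 and 2249, 1230 and 1258, and 1538 and 1638 in control and treated cells of replicates 1 to 4. The log2 ratios were -0.23, -0.001, -0.24 and -0.07, so replicate 2 was close to 0. Before background correction and normalisation the log2 ratio of the scanned signals had a mean of 0.11 and was above 0 on 3 of 4 arrays. That scanned mean was above 0 for every member probe, from 0.08 for M6PR to 0.55 for CAV3. The direction of CD9 thus appears only after normalisation. It was the same without background correction (-0.13) and with median centring (-0.15). The normalised mean was -0.13 ± 0.12 (SD, n = 4), a 1.098-fold higher signal in control cells, which did not pass (limma adjusted p of 0.124). Its 95% confidence interval, unadjusted for the number of probes, was -0.26 to -0.01.

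DYSF, dysferlin, is a large calcium-binding ferlin of the muscle membrane that takes part in resealing. Scanned signals in control and treated cells were 445.5 and 684.7, 380.4 and 516.3, 352.7 and 443.9, and 468.0 and 563.3 on replicates 1 to 4. The log2 ratios were 0.44, 0.26, 0.12 and 0.23, highest on replicate 1, and the channel signals overlapped because the control signal of replicate 4 lay above the treated signal of replicate 2. The mean was 0.26 ± 0.13 (SD, n = 4; 95% confidence interval 0.13 to 0.40), or 1.201-fold, with a limma adjusted p of 0.0317. Under Agilent's own processing and the deposited ratios the call for DYSF was lost too (adjusted p of 0.117 in both).

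MYOF, myoferlin, is the related ferlin that is abundant in myoblasts before and during fusion. Its scanned signals were 2138 and 2482, 1605 and 2029, 1309 and 1836, and 1647 and 1847 in control and treated cells. The log2 ratios were -0.01, 0.003, 0.20 and 0.01, so that 3 arrays lay near 0 and replicate 3 alone stood apart. The mean was 0.05 ± 0.10 (SD, n = 4; 95% confidence interval -0.07 to 0.17; limma adjusted p of 0.495), and without replicate 3 it was 0.0005.

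Between the 2 ferlins DYSF had the higher ratio on 3 of 4 arrays. The difference was 0.45, 0.26, -0.08 and 0.23 on replicates 1 to 4, with a mean of 0.21 ± 0.22 (SD, n = 4). It was no larger than its SD, and the exact two-sided sign-flip test gave p = 0.25 (0.375 adjusted).

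CAV3, the muscle form of caveolin, coats the flask-shaped membrane pits called caveolae and binds dysferlin. Its scanned signals in control and treated cells were 776.7 and 1287 on replicate 1, 681.1 and 929.7 on replicate 2, 557.8 and 861.5 on replicate 3, and 649.8 and 863.1 on replicate 4. The log2 ratios were 0.53, 0.19, 0.38 and 0.31. Every normalised treated signal, from 9.70 to 9.95, lay above every control signal, from 9.42 to 9.54. The mean was 0.35 ± 0.14 (SD, n = 4; 95% confidence interval 0.21 to 0.49), a 1.28-fold difference with a limma adjusted p of 0.0198. It was the highest log2 ratio of the 12 probes and lay above 97.9% of all probes tested.

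M6PR, the cation-dependent mannose 6-phosphate receptor, carries newly made hydrolases from the Golgi to lysosomes, organelles that can fuse with a wounded membrane. Its scanned signals were 347.1 and 331.0, 276.2 and 327.3, 261.8 and 275.0, and 330.7 and 351.1 in control and treated cells of replicates 1 to 4. The log2 ratios of -0.17, 0.13, -0.05 and 0.16 had no common sign. The mean was 0.02 ± 0.16 (SD, n = 4; 95% confidence interval -0.14 to 0.17; limma adjusted p of 0.874). Its sign turned in 4 alternative settings, among them Agilent's processed signals and the deposited ratios, which hold the same values.

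In order of the mean log2 ratio, CAV3 was followed by CDH15, DYSF, ADAM12, the NCAM1 probe at position 1993, TMEM8C, the NCAM1 probes at positions 3431 and 3491, MYOF, M6PR, CDH2 and CD9. Neighbours in this order differed by less than the larger of their SDs between arrays throughout. The members had mean log2 signals of 7.56 to 12.1, and the 5 called ones spread over that range. The same 5 probes passed when a running median over signal was also taken from the ratios. Those ratios were already normalised by loess over signal, so this is no separate check on a trend with signal.

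**Figure D3:**
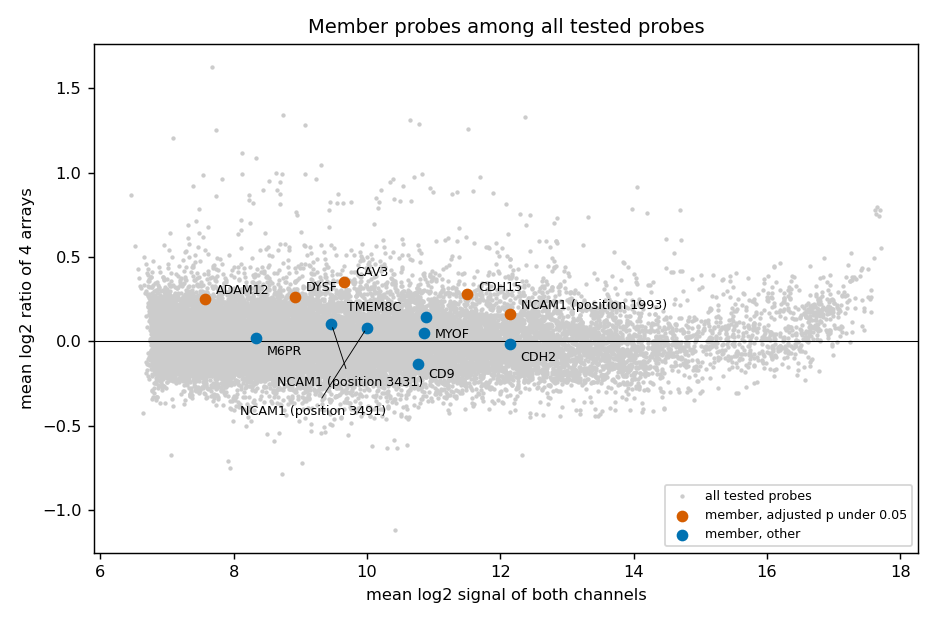
Mean log2 ratio of 4 arrays (y axis) against mean log2 signal of both channels (x axis) for all 24230 tested probes (grey) and the 12 member probes (orange where the adjusted p is under 0.05, blue otherwise). The called members sit on the upper side of the grey cloud, from ADAM12 at a signal of 7.56 to the NCAM1 probe at 12.1.

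Genes that work with these members were taken from 4 lists, each read at its brightest tested probe. The array held 104 of the 109 listed genes and 86 were tested. Of those 86, 17 passed (19.8%, beside 17.1% of all probes), 9 higher and 8 lower, a share near the background. BOC, NCKAP1 and SNAP23, named after their values were seen, did not pass at that probe, but 1 other tested probe of each did. The 17 fell to 0 without replicate 1, 3 or 4, with median centring and by the methods' t-test. With unpaired channels 1 still passed, a gene of the fusion list. Each of the 17 calls, including those named below, was thus lost in the former settings.

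The adhesion list held partners of cadherins, nectins and immunoglobulin adhesion molecules. Of 18 genes tested, 2 were higher and 1 lower (16.7% called, beside 17.1% of all probes), with a median log2 ratio of 0.08. KIRREL1, a relative of the fly receptors for myoblast attraction, was higher by 0.30 ± 0.12 (limma adjusted p of 0.0226), and NECTIN1, an immunoglobulin adhesion molecule, by 0.33 ± 0.21 (adjusted p of 0.0357). CTNNA1, which links cadherins to actin, was lower at -0.16 ± 0.06 (adjusted p of 0.0497), and 1 of its 5 probes passed.

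The fusion list held actin regulators, tetraspanins and ADAM proteases. Of 28 genes tested, 4 were higher and 1 lower (17.9% called, beside 17.1% of all probes), with a median log2 ratio of 0.04. FLNC, muscle filamin that crosslinks actin, was higher by 0.41 ± 0.08 (limma adjusted p of 0.0125), or 1.33-fold, and ARF6, a small GTPase of membrane traffic and actin, by 0.31 ± 0.08 (adjusted p of 0.0166). The tetraspanins CD81 (0.35 ± 0.23, adjusted p of 0.0389) and CD82 (0.20 ± 0.05, adjusted p of 0.0276) were also higher. Of the other tetraspanins, CD63 (-0.05 ± 0.02, below 0 on all 4 arrays) and CD151 (0.06 ± 0.17, above 0 on 2 of 4) did not pass, nor did the member CD9. CD63 and CD151 are named, after their values were seen, to show every tetraspanin of the fusion list. The rest of the family was not looked at. WIPF1, a partner of the WASP actin regulators, was lower at -0.22 ± 0.05 (adjusted p of 0.0233) with both tested probes passing.

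The repair list held caveola proteins, calpains, annexins, ferlins and vesicle fusion proteins. Of 28 genes tested, 1 was higher and 5 lower (21.4% called, beside 17.1% of all probes), with a median log2 ratio of -0.01. PACSIN3, a membrane-bending protein of muscle caveolae, was higher by 0.23 ± 0.11 (limma adjusted p of 0.0332). Lower were S100A10 (-0.28 ± 0.08, adjusted p of 0.0191) and ANXA1 (-0.29 ± 0.14, adjusted p of 0.0272), both of the annexin system that binds injured membranes, with all 2 and all 4 of their probes below 0. ANXA6, an annexin of the repair cap, had ratios of -1.69, -1.19, -1.55 and -0.04, so that replicate 4 stood far from the others (mean -1.12 ± 0.75, adjusted p of 0.0339). The annexin system was not lower throughout. ANXA2 (0.14 ± 0.08, limma adjusted p of 0.0753), S100A11 (0.02 ± 0.12) and ANXA5 (-0.04 ± 0.15) did not pass. ANXA2 was above 0 on all 4 arrays, as were the means of its 3 probes. They are named, after their values were seen, to show every annexin and S100 gene of the repair list. CAPN2, a calcium-activated protease, was lower at -0.17 ± 0.07 (adjusted p of 0.0414). AHNAK, a dysferlin-binding scaffold, passed as lower and is past the 5 genes that the naming rule allows. It is named after its values were seen because its 2 probes passed in opposite directions. TRIM72, CAPN3, OTOF and FER1L6, which belong to the same machinery or family, had no probe bright enough to test. The remaining 22 tested genes did not pass at their brightest tested probe, and over all 28 the ratio was above 0 for 14 and below 0 for 14. The 5 lower genes stand beside 7.59% of all probes called lower. The count of 6 passing repair genes fell to 3 with Agilent's processed signals or the deposited ratios, and to 0 in 6 other settings.

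The sorting list held receptors, adaptors and lysosomal proteins around M6PR. Of 12 genes tested, 2 were higher and 1 lower (25% called, beside 17.1% of all probes), with a median log2 ratio of 0.04. GGA2, an adaptor that packs the mannose 6-phosphate receptors into vesicles, was higher by 0.26 ± 0.12 (limma adjusted p of 0.0289), and SORT1, another sorting receptor, by 0.19 ± 0.05 (adjusted p of 0.0306). AP1G1, a subunit of the AP-1 adaptor, was lower at -0.18 ± 0.07 (adjusted p of 0.0374).

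**Figure D4:**
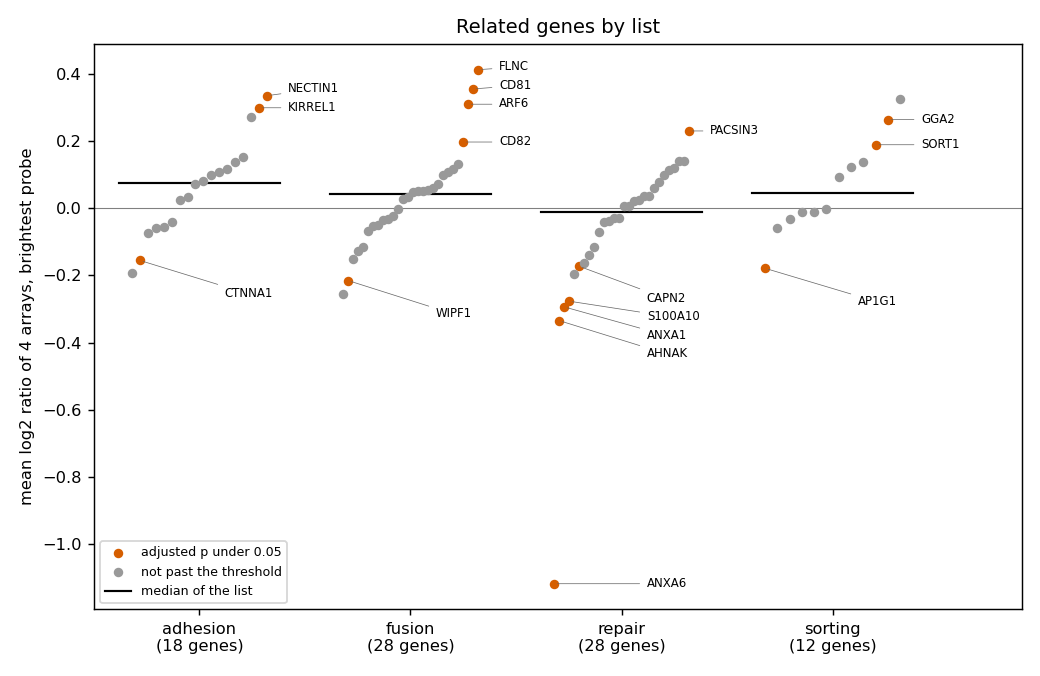
Mean log2 ratio of 4 arrays (y axis) at the brightest tested probe of each gene in the adhesion, fusion, repair and sorting lists (x axis), ordered by value within a list, with genes past an adjusted p of 0.05 in orange and named and the list median as a line. The repair list is the one with more genes passing lower (5) than higher (1), and ANXA6 lies farthest from 0 at -1.12.

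**Figure D5:**
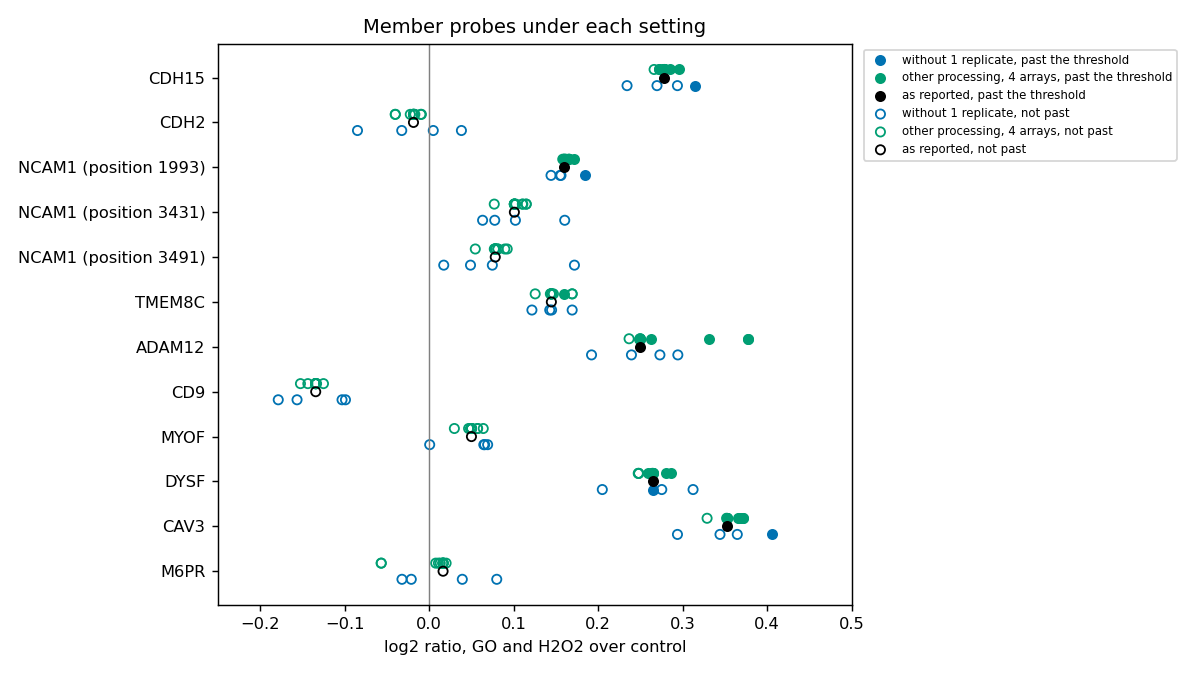
Log2 ratio (x axis) of the 12 member probes (y axis) as reported (black), with other processing of all 4 arrays (green) and without 1 replicate (blue), filled where the adjusted p is under 0.05. The points of CDH15, the NCAM1 probe at position 1993, ADAM12, DYSF and CAV3 stay above 0 throughout, while most points without 1 replicate are open. Settings that change only the filter, the test or the pairing keep the reported ratio and could not turn its sign.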

How the data were processed

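Horse gene expression arrays with 2 colours were scanned by the authors with Agilent Feature Extraction 10.10.1.1, and the deposited files hold each spot's mean intensity and background intensity per channel. The deposited value table holds log10 ratios of red over green, equal to the scanner files' ratio column. The study's own test was run in GeneSpring. Here the intensities were background-corrected with normexp (offset 50) and loess-normalised within each array in R 4.3.3 with limma 3.58.1, control spots having weight 0. For the normalised signals of single channels, the mean signals of the arrays were also quantile-normalised between arrays, which leaves the ratios unchanged. Outlier spots were dropped and spots of a probe averaged. Probes well above background on all 4 arrays in at least 1 channel were kept (24230 of 43603). The mean log2 ratio was tested against 0 with lmFit and eBayes, two-sided, and p adjusted by Benjamini-Hochberg across all kept probes. No spot was saturated, and the number of arrays limits the precision. The script was tested on simulated data.

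Members and gene lists were chosen with earlier results of these data known. All member probes are named. From each list at most 5 genes with the smallest adjusted p among those passing are named. Further genes are named where the text says that their values were seen first, or that no probe could be tested. Alternatives were Agilent's processed signals, the deposited ratios, no background correction, offset 0, median centring, a running median over 1001 probes, other filters, limma trend with robust fitting, the methods' t-test, separate channels without the array as a block, and each array left out. The running median was taken from ratios already normalised by loess. Dyes were not swapped. The replicate number pairs both channels of 1 array.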

Additional observations from a re-analysis of the deposited data

Results flagged for a closer look

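MYOF was looked at again because 1 array stood far from the others. Replicate 3 had a log2 ratio of 0.20, while the other arrays lay between -0.01 and 0.01, and the gap divided by the whole range was 0.934, above Dixon's 95% critical value for 4 samples. All 12 member probes were examined in this way and chance flags about 1 in 20 such sets, so 1 of 12 is near what chance gives. The call for MYOF was the same with and without that array, since it passed in neither.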

How the results depend on the processing

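Over the 15 alternatives the signs of 10 member probes did not change. Alternatives that change only the filter, the test or the pairing keep the same ratios, so no sign could change there. Agilent's processing and the deposited ratios are the same values under 2 names. CDH2 turned to 0.005 without replicate 1 and 0.0380 without replicate 2 (lowest -0.0850, without replicate 3). M6PR turned to -0.0569 under both Agilent's processing and the deposited ratios, to -0.0213 without replicate 2 and to -0.0323 without replicate 4 (highest 0.0798, without replicate 1). Of 12 member probes, 3 passed under each of those processed versions (CDH15, ADAM12 and CAV3). With median centring, 12 of all probes, 0 member probes and 0 of the listed genes passed, and 1571 probes and 2 members had an unadjusted p under 0.05. The methods' t-test gave 5, 0 and 0 after Benjamini-Hochberg (6930 probes and 6 members unadjusted). With no replicate block, treating both channels of an array as unpaired, 594, 2 (CDH15 and CAV3) and 1 passed. Leaving out 1 replicate gave 0 (without replicate 4) to 3899 (without replicate 2) of all probes, 0 to 4 member probes, 0 to 17 listed genes, 0 to 1 member probe at 1.3-fold, and a member median of 0.10 to 0.16. Unadjusted, 6484 probes and 5 members without replicate 1, 7309 and 6 without replicate 3, and 6694 and 8 without replicate 4 were under 0.05. These fits have fewer samples. Otherwise the cause was not tested. The other alternatives left the count of called member probes between 4 and 6. With 4 arrays and no dye swap, dye and treatment cannot be told apart, and ADAM12, the dimmest member, moved most with the processing.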
